A study of Homo sapiens with 12 samples.

Results

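The 8 genes described here were the DNA mismatch repair genes MSH3, MSH4, MSH5, MSH6, MLH3, PMS1, PMS2 and EXO1, chosen by symbol and matched by Ensembl identifier among the 58174 identifiers of the mRNA-seq tables of 2 glioblastoma cell lines. They comprise 4 MutS genes, 3 MutL genes and the exonuclease gene EXO1. All 8 were found in the tables of both lines, and 7 passed the filter on low values in each line. MSH4 did not pass it.

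The libraries came from U87 (U-87 MG) and U118 (U-118MG), established human glioblastoma lines, with 3 libraries in each of 4 groups. Sensitive cells were the controls, and resistant cells were aggregations obtained by continuous induction with the alkylating drug temozolomide (TMZ) at 50 µM. The study describes growth retardation during and after treatment before aggregations formed, so they may have formed after the drug was withdrawn. According to the study's methods, the cells of each line were depleted of CD133-positive and CD15-positive cells and kept in serum with BMP2 before treatment. Because aggregations arose from a subset of surviving cells, a resistant group does not represent the whole starting population. No source stated that the 3 libraries of a group were separate cultures, so p-values measure only the spread between these libraries, which may be technical.

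Mismatch repair corrects mispaired bases and small loops that DNA polymerases leave behind. MutS heterodimers recognise the mispair, MutL heterodimers are recruited and cut the new strand, and EXO1 resects it before DNA polymerase delta refills the gap with the help of the clamp PCNA, the clamp loader RFC and the single-strand binding protein RPA, and DNA ligase I seals it. The pathway is known in glioma because TMZ methylates guanine, the methylated base pairs with thymine, and repeated processing of that pair leads to strand breaks and cell death.

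Before the members are described, 4 features of the libraries bear on them. First, over 16382 genes the libraries labelled U118 resistant had Spearman correlations of 0.808 to 0.839 with U118 sensitive libraries but of 0.895 to 0.913 with the U87 libraries, and because this held for each of the 3 libraries, no U118 result could be given without them. The identity of these 3 libraries as U118 cells is therefore in doubt and was not tested, and "U118 resistant" is used below only as their label. Second, replicate 1 of U118 resistant cells stood apart from the other 2, with median departures from them of 0.39 to 0.53 on the log2 scale across classes of transcript length. A further one is that replicate 2 of U87 sensitive cells read higher for long transcripts, with a median departure of 0.04 for genes whose longest transcript was under 2000 bases and of 0.33 for those over 6000 bases. Last, the share of TPM from mitochondrially encoded genes was 12.9% to 16.9% in U87 sensitive and 22.2% to 23.7% in U87 resistant libraries, and in U118 7.42%, 8.55% and 19.8% in sensitive and 13.2%, 29.9% and 26.1% in resistant libraries. U118 resistant replicates 2 and 3 also had 13270 and 13545 genes at 1 TPM, against 15129 to 15290 in U118 sensitive libraries. With mitochondrially encoded genes left out of the TPM, 4 members in place of 5 were called lower in U118 (all but PMS2) and still 0 in U87. Of the 5 glial markers, GFAP, the astrocyte filament, was at 0.168 to 0.693 TPM over the 12 libraries, SOX2 had the value 0 in each of the 6 U87 libraries, and S100B did not exceed 0.281 TPM. OLIG2 was at 1.45 to 4.45 TPM in U87 and at 0 to 1.05 TPM in U118, where the resistant libraries were the higher ones without overlap. SOX2 went the other way in U118, at 0.376, 0.328 and 0.550 TPM in sensitive and 0.0590, 0.0253 and 0.0279 TPM in resistant libraries. NES was at 5.76 to 24.1 TPM and higher in the resistant libraries of both lines without overlap. The summed level of the 5 was 9.33 to 12.3 TPM in U87 sensitive, 14.0 to 16.1 in U87 resistant, 6.68 to 8.47 in U118 sensitive and 11.6 to 26.0 TPM in U118 resistant libraries. The mesenchymal filament VIM was at 4425 to 7149 TPM. Of 8 markers of other cells, PTPRC (leukocytes), MBP (oligodendrocytes), PECAM1 and VWF (endothelium) and EPCAM (epithelium) did not exceed 1.12 TPM. CD68 was at 170.2 to 379 TPM, the neuronal gene SNAP25 at 3.01 to 13.4 TPM and the epithelial keratin KRT18 at 0.0912 to 2.20 TPM. SNAP25 and VWF were higher in U87 resistant libraries, and KRT18 and EPCAM in U118 resistant libraries, without overlap. EPCAM, PECAM1 and CD68 were lower in U87 resistant libraries, and PECAM1 in U118 resistant libraries, also without overlap. The part of these differences in the members' changes was not tested. A TPM value keeps no read count, so the depth behind each value and a detection limit are unknown.

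The promoter of each member, here the 250 bases upstream of its first-listed RefSeq start, was available for all 8 genes (RefSeq, GRCh38.p14). Those of 4 genes are shown because MSH5, EXO1 and PMS1 had the 3 largest changes of all members in U118, and MSH3, which was not called in either line, gives the contrast. Each reads 5′ to 3′ on the strand of its gene, the plus strand for all 4, and capitals mark a CCAAT box (CCAAT, or ATTGG on the opposite strand) or an E2F-type site (TTTGGCGC, TTTGCCGC, TTTCGCGC or TTTCCCGC, on either strand).
MSH5, chr6:31739755-31740004: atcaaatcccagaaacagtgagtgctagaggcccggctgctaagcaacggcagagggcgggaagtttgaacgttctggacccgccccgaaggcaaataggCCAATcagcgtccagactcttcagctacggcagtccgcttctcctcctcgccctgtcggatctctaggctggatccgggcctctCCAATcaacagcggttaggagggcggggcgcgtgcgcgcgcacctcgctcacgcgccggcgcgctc
EXO1, chr1:241847954-241848203: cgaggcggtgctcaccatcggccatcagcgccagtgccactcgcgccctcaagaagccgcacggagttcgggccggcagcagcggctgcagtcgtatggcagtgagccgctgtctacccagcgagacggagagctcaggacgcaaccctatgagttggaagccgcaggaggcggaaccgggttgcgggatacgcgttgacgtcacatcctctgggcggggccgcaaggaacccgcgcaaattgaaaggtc
PMS1, chr2:189784200-189784449: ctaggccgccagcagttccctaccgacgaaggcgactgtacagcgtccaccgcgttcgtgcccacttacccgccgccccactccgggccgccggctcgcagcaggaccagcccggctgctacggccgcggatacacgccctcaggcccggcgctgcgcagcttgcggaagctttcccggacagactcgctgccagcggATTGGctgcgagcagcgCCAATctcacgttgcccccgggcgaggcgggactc
MSH3, chr5:80654402-80654651: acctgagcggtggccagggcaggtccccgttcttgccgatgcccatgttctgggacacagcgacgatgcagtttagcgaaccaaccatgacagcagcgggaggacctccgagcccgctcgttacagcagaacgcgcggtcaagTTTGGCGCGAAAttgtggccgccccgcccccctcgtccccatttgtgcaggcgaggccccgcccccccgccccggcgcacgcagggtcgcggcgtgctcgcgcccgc
MSH5 and PMS1 each hold 2 CCAAT boxes, EXO1 holds neither motif, and MSH3 holds 2 overlapping E2F-type sites on opposite strands. Of the 8 members, 5 hold a CCAAT box (MSH4, MSH5, MSH6, PMS1 and PMS2), against 33.0% of the 27305 gene promoters of the same length. A GC box (GGGCGG, either strand) was found in 6 of the 8, all except MSH4 and MLH3, against 42.3% of all promoters. An E2F-type site was found in 2 of the 8, MSH3 and PMS2, against 2.79% of all promoters, and that of PMS2 overlaps a GC box. The cell cycle element TTTGAA was found in MSH5 alone among the 8 (13.6% of all promoters), and TATAAA in none of them (11.1%). These matches describe letters in the window, and whether any factor binds there was not measured.

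Levels are given in TPM, a unit that corrects for transcript length, so that genes can be compared within a library. In U87 sensitive cells MSH6 had the highest mean of the members, 13.0 ± 2.46 TPM (SD, n = 3), EXO1 came next, and 5 others lay between 5.37 and 7.57 TPM. Each of these 7 overlapped its neighbour in the order except MSH3, which lay above MSH4 without overlap. In U87 resistant cells EXO1 came first at 12.7 ± 0.997 TPM, above MSH5 without overlap (SD, n = 3). In U118 sensitive cells MSH5 came first at 40.9 ± 2.38 TPM, followed by EXO1 at 32.8 ± 2.73 and PMS2 at 19.6 ± 1.85 (SD, n = 3), with no overlap among these 3. PMS2 and MSH6 overlapped, as did MSH6 and PMS1. In U118 resistant cells all 7 means lay between 4.89 and 11.3 TPM, and every gene from EXO1 down to MLH3 overlapped its neighbour in the order. The spread among members was thus widest in U118 sensitive cells and narrow in U118 resistant cells. Among the genes whose mean reached 1 TPM, MSH5 exceeded 73.7% in U118 sensitive cells and 43.7% in U118 resistant cells, and EXO1 exceeded 68.6% and 48.2%.

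A gene was called where its Benjamini-Hochberg adjusted p over all tested genes was under 0.05 and its log2 fold change of TPM + 1, resistant minus sensitive, was at least 1 in size (limma). In U87, 0 of the 7 tested members were called lower or higher, against 7.79% of all 13845 tested genes called lower and 3.03% called higher. At an unadjusted p under 0.05, and equally at an adjusted p under 0.05 with no fold change threshold, 2 members were lower, MSH6 and PMS2, where 29.7% of all genes were lower by the latter rule. In U118, 5 of the 7 tested members were called lower (MSH5, EXO1, PMS1, MSH6 and PMS2) and none higher, against 26.6% of all 15527 tested genes called lower and 8.64% called higher. The median change of the 7 members was -0.29 in U87, where that of all tested genes was -0.24, and -1.22 in U118, where that of all tested genes was -0.52. Rescaling each library by the median ratio moved the medians of all genes to near 0 in U87 and to -0.06 in U118, and those of the members to -0.05 and -0.75. Under that scaling 1 member of 7, MSH5, stayed called in U118, where 13.7% of all genes were called lower and 14.7% higher, so that the members' share was no longer above the background. No member was called in U87, where 3.81% of all genes were called lower and 4.97% higher.

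Every resistant library lay below every sensitive library for 2 of the 7 tested members in U87 (MSH6 and PMS2; 39.8% of all tested genes) and for 5 in U118 (the 5 called members; 42.9% of all). Every resistant library lay above every sensitive library for 1 in U87 (EXO1; 13.6% of all) and for none in U118 (15.7% of all). The U118 count of 5 in 7 stood above its background on the TPM scale, and the U87 counts were near or below theirs.

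MSH6 (ENSG00000116062, GRCh38 chromosome 2, 47695530 to 47810101, plus strand) encodes the subunit that gives MutS alpha its recognition of base mispairs and short loops. In U87 it was at 10.7, 15.6 and 12.7 TPM in the sensitive libraries and at 5.86, 7.22 and 7.14 TPM in the resistant libraries. The groups did not overlap. The change was -0.85 (SE 0.17, limma adjusted p = 0.00851), which passed on p and was under the fold change threshold. In U118 it was at 13.9, 20.6 and 17.5 TPM in sensitive and at 12.2, 5.37 and 4.68 TPM in resistant libraries. Again the groups did not overlap, although resistant replicate 1 came close to the lowest sensitive library. The change was -1.22 (SE 0.34, limma adjusted p = 0.0166), or -0.69 relative to the median of all genes. Its call was lost under 5 of 13 alternatives. These were median-ratio scaling (-0.75), no filter on low values, and leaving out U118 sensitive replicate 2 or 3 or resistant replicate 3. With those libraries left out the limma adjusted p was 0.0627 to 0.0663, and it ranged from 0.000415 to 0.0663 over all alternatives. FBXO11, a ubiquitin ligase gene on the opposite strand that the annotated MSH6 gene overlaps, changed by -0.52 in U87 (limma adjusted p = 0.121) and fell by 1.27 in U118 (limma adjusted p = 0.00274). Strand use in counting is not given in the sources used here, so reads of the shared stretch cannot be told apart.

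MSH3 (ENSG00000113318, chromosome 5, 80654648 to 80876460, plus strand) encodes the corresponding subunit of MutS beta, which binds larger loops. The U87 values were 3.86, 8.04 and 4.20 TPM in sensitive and 4.06, 4.37 and 3.83 TPM in resistant libraries. The U118 values were 6.90, 6.39 and 8.92 TPM in sensitive and 8.40, 4.47 and 5.04 TPM in resistant libraries. The groups overlapped in both lines, and the high U87 value was in the library that read higher for long transcripts. The longest MSH3 transcript has 4092 bases, and genes of 4000 to 6000 bases had a median departure of 0.18 on the log2 scale in that library. The part of transcript length in the MSH3 value was not tested. The changes were -0.27 (95% interval -0.87 to 0.33, limma adjusted p = 0.444) in U87 and -0.30 (95% interval -0.93 to 0.33, limma adjusted p = 0.388) in U118. In U87 the change was 0.016 without sensitive replicate 2, and in U118 it was 0.14 under median-ratio scaling.

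MSH5 (ENSG00000204410, chromosome 6, 31739948 to 31762834, plus strand) encodes a MutS protein known for stabilising crossovers in meiosis rather than for repair of mispairs. U87 cells held 7.13, 6.09 and 8.93 TPM in sensitive and 7.73, 7.28 and 7.92 TPM in resistant libraries, so that the resistant values lay inside the sensitive range. U118 cells held 39.7, 39.3 and 43.6 TPM in sensitive and 18.1, 5.21 and 5.01 TPM in resistant libraries. All 3 resistant libraries were far below the sensitive ones, and resistant replicate 1 stood between them and the others. The U87 change was 0.06 (95% interval -0.33 to 0.45, limma adjusted p = 0.807). In U118 MSH5 fell by 2.23 (SE 0.42, limma adjusted p = 0.00224), the largest change of the 7 tested members, or by 1.71 relative to the median of all genes. It stayed called under all 13 alternatives, between -2.78 and -1.76.

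MSH5 shares its locus with MSH5-SAPCD1, an annotated readthrough transcript, and with SAPCD1, so their reads can be split between them. In U118 MSH5-SAPCD1 was at 7.55, 5.83 and 9.97 TPM in sensitive and 3.92, 0.357 and 0.934 TPM in resistant libraries, a fall of 1.88 (limma adjusted p = 0.00708). SAPCD1 fell by 1.31 in U118 (limma adjusted p = 0.0489), and its groups overlapped. The nearest other gene, CLIC1, changed by -0.55 in U118 (limma adjusted p = 0.0789), close to the median of all genes.

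MSH4 (ENSG00000057468, chromosome 1, 75796882 to 75913238, plus strand) encodes the meiotic partner of MSH5. It was listed at 0 in all 3 U87 sensitive libraries and in 2 of the 3 U87 resistant libraries, with 0.0413 TPM in resistant replicate 2. In U118 it was at 0.106, 0.0307 and 0.196 TPM in sensitive libraries, at 0.0166 TPM in resistant replicate 2 and listed at 0 in the other 2 resistant libraries. MSH4 was therefore near 0 in all 12 libraries, whereas MSH5 was at 5.01 TPM or more in each of them, and no fold change is given for MSH4. Of 8 other genes of meiotic crossing over, 2 passed the filter in each line and neither was called in U87. The ligase gene CCNB1IP1 was called lower in U118 (-1.30, limma adjusted p = 0.00674). The strand exchange gene DMC1 was at 0.157, 0.395 and 0 TPM in U118 sensitive and 2.93, 1.22 and 1.91 TPM in U118 resistant libraries, and since it passed the filter only through the resistant libraries, no test is given. SPO11, SYCP1, TEX11, HFM1, SHOC1 and RNF212 did not pass the filter.

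PMS2 (ENSG00000122512, chromosome 7, 5973239 to 6009125, minus strand) encodes the subunit of MutL alpha that cuts the strand to be repaired. In U87 it was at 5.48, 8.48 and 8.20 TPM in sensitive and 4.39, 3.12 and 4.58 TPM in resistant libraries, without overlap. U118 cells held 18.6, 21.7 and 18.5 TPM in sensitive and 17.6, 5.64 and 5.85 TPM in resistant libraries, and resistant replicate 1 was within 1 TPM of the lowest sensitive library. The U87 change was -0.73 (SE 0.21, limma adjusted p = 0.0325), too small for a call. In U118 PMS2 fell by 1.12 (SE 0.39, limma adjusted p = 0.0372). This call was lost under 8 of 13 alternatives. They include each fit without a U118 library other than resistant replicate 1 (limma adjusted p of 0.0688 to 0.118). Over all alternatives the limma adjusted p spanned 0.000152 to 0.118.

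PMS2 has near-identical pseudogene copies on chromosome 7, and how the authors' counting divided reads among them is not given in the sources used here, so its values are uncertain. The copy PMS2CL was not called in either line, at -0.44 (limma adjusted p = 0.182) in U87 and -0.57 (limma adjusted p = 0.246) in U118. PMS2P1, the most abundant copy, was at 19.5, 20.2 and 17.1 TPM in U87 sensitive and 9.57, 8.99 and 9.09 TPM in U87 resistant libraries. In U118 the resistant libraries were the higher ones, with 14.6, 13.9 and 13.8 TPM in sensitive and 32.6, 21.3 and 21.4 TPM in resistant libraries. Its changes were -0.96 (limma adjusted p = 0.00115) and 0.76 (limma adjusted p = 0.0257), both too small for a call. AIMP2, which starts 120 bases from PMS2 on the opposite strand and encodes a scaffold of the tRNA synthetase complex, fell by 1.01 in U87 (limma adjusted p = 0.000208) and changed by -0.43 in U118 (limma adjusted p = 0.121).

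PMS1 (ENSG00000064933, chromosome 2, 189784085 to 189877629, plus strand) encodes the corresponding subunit of MutL beta, whose part in repair is minor. U87 cells held 4.26, 10.7 and 4.31 TPM in sensitive and 4.91, 4.55 and 4.46 TPM in resistant libraries, and sensitive replicate 2 was the only value outside a narrow band. The change was -0.29 (95% interval -1.05 to 0.47, limma adjusted p = 0.513), and 0.094 without that library. The U118 values were 16.4, 11.5 and 19.4 TPM in sensitive and 6.70, 4.71 and 5.28 TPM in resistant libraries, with no overlap. PMS1 fell there by 1.34 (SE 0.27, limma adjusted p = 0.00312), or by 0.82 relative to the median of all genes. The call held with each library left out and was lost only under median-ratio scaling, at -0.88 (limma adjusted p = 0.0111). ORMDL1, which overlaps PMS1 on the opposite strand, was at -0.0034 in U118 with an adjusted p of 0.993 (limma).

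MLH3 (ENSG00000119684, chromosome 14, 75013764 to 75051532, minus strand) encodes the subunit of MutL gamma, a nuclease with a role in meiotic crossovers. The U87 values were 5.43, 11.3 and 6.01 TPM in sensitive and 5.49, 4.71 and 5.89 TPM in resistant libraries. In U118 it was at 4.24, 3.26 and 5.10 TPM in sensitive and 6.16, 2.12 and 6.38 TPM in resistant libraries. The groups overlapped in both lines. The changes were -0.37 (95% interval -0.99 to 0.25, limma adjusted p = 0.303) in U87 and 0.09 (95% interval -0.71 to 0.89, limma adjusted p = 0.845) in U118. The high U87 value was in sensitive replicate 2, which read higher for long transcripts. The longest MLH3 transcript has 7896 bases, and genes over 6000 bases had a median departure of 0.33 there. The part of transcript length in this value was not tested. With 1 library left out the U87 change ranged from -0.55 to -0.08. MLH3 was the only tested member whose U118 value was above 0, and it turned to between -0.12 and -0.04 without sensitive replicate 2, resistant replicate 1 or resistant replicate 3.

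EXO1 (ENSG00000174371, chromosome 1, 241847967 to 241895148, plus strand) encodes the exonuclease that removes the stretch holding the mispair. In U87 it was at 7.60, 11.5 and 10.9 TPM in sensitive and 13.8, 11.8 and 12.5 TPM in resistant libraries. The resistant libraries were the higher ones and did not overlap the sensitive libraries, which no other tested member showed in either line. The change was 0.33 (SE 0.18, limma adjusted p = 0.180), which did not pass the test. Under median-ratio scaling it was 0.59 (limma adjusted p = 0.0188), past the p threshold and still too small for a call. In U118 EXO1 was at 36.0, 31.3 and 31.2 TPM in sensitive and 14.8, 9.27 and 9.93 TPM in resistant libraries, well apart. EXO1 fell there by 1.48 (SE 0.24, limma adjusted p = 0.00108), or by 0.96 relative to the median of all genes. It was just under the fold change threshold under median-ratio scaling, at -0.99 (limma adjusted p = 0.00109), and stayed called with each library left out.

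The difference between the lines, the U118 change minus the U87 change, was tested as an interaction over all 12 libraries. It passed the threshold of an adjusted p under 0.05 for 2 of the 7 tested members, against 38.1% of all 16382 genes tested. MSH5 differed by -2.29 (SE 0.50, limma adjusted p = 0.00322) and EXO1 by -1.81 (SE 0.29, limma adjusted p = 0.00035). PMS1 differed by -1.05 with an adjusted p of 0.0707 (limma). For MSH6, PMS2, MLH3 and MSH3 the differences were -0.37, -0.39, 0.46 and -0.03, and their limma adjusted p were 0.511, 0.556, 0.475 and 0.956. Without U118 resistant replicate 1, 5 members were past the threshold, the further 3 being MSH6 (-0.74), PMS1 (-1.17) and PMS2 (-0.88). PMS1 also passed without U87 sensitive replicate 2 (-1.43) and without U118 sensitive replicate 2 (-1.25).

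For MSH5, PMS1, EXO1 and PMS2, whose U118 sensitive libraries all lay above the 6 U87 libraries, the U118 resistant libraries were at or nearer U87 levels. All 3 for PMS1, and replicates 2 and 3 for EXO1 and PMS2, lay within the U87 range. For MSH5 and MSH6 replicates 2 and 3 lay below every U87 library. Those of MSH5 were at 5.21 and 5.01 TPM, against a lowest U87 value of 6.09 TPM. For MSH3 replicates 2 and 3, and for MLH3 replicates 1 and 3, lay within the U87 range, but so did some of their U118 sensitive libraries. The U118 resistant libraries are the same ones that lay close to U87 across all genes. The part of that closeness in the U118 changes cannot be told apart and was not tested.

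Ratios of 2 genes within a library do not depend on how the library was scaled. Of 4 ratios, 3 between members and 1 of EXO1 to the partner PCNA, each was compared in both lines, 8 comparisons in all, by exact two-sided permutation tests, for which 3 against 3 libraries allow no p below 0.1. The log2 ratio of MSH6 to MSH3, the subunits particular to MutS alpha and MutS beta, was 1.47, 0.96 and 1.60 in U87 sensitive and 0.53, 0.72 and 0.90 in U87 resistant libraries. In U118 it was 1.01, 1.69 and 0.97 in sensitive and 0.53, 0.27 and -0.11 in resistant libraries. It was lower in all 3 resistant libraries of each line, by means of -0.63 and -0.99 (exact permutation p = 0.1 in each line, 0.2 adjusted over the 8 comparisons), and it kept this direction with each library left out.

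The log2 ratio of EXO1 to MSH6 was -0.50, -0.44 and -0.22 in U87 sensitive libraries and 1.23, 0.71 and 0.81 in U87 resistant libraries. EXO1 was thus below MSH6 in the sensitive and above it in the resistant U87 libraries, a difference of 1.30 (exact permutation p = 0.1, adjusted 0.2). In U118 the ratio was 1.37, 0.60 and 0.83 in sensitive and 0.29, 0.79 and 1.09 in resistant libraries. The U118 groups overlapped, with a difference of -0.22 (exact permutation p = 0.5, adjusted 0.667). The log2 ratio of EXO1 to PCNA was also higher in U87 resistant libraries, with means of -4.42 in sensitive and -3.23 in resistant libraries and no overlap (exact permutation p = 0.1, adjusted 0.2). In U118 its means were -3.76 and -3.88, and the groups overlapped (exact permutation p = 0.7). The log2 ratio of PMS2 to PMS1 overlapped between groups in both lines, with differences of -0.54 in U87 and 0.26 in U118 (exact permutation p = 0.3 and p = 0.6).

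The genes that act after mispair recognition were described by a list of 14 (PCNA, RFC1 to RFC5, RPA1 to RPA3, POLD1 to POLD4 and LIG1), all of which were tested in both lines. In U87 none was called, where 7.79% of all genes were called lower and 3.03% higher. There 12 were below 0, as were 9532 of all 13845 tested genes, and the median change was -0.40. In U118, 8 were called lower and 1 higher (26.6% and 8.64% of all genes), with a median of -1.11. Under median-ratio scaling 3 (RPA1, POLD3 and LIG1) were called lower and POLD4 higher in U118 (13.7% and 14.7% of all genes). POLD4 was also called higher in U87, at 1.03 (4.97% of all genes). PCNA, the sliding clamp, was at 192, 248 and 197 TPM in U87 sensitive and 121, 106 and 129.7 TPM in U87 resistant libraries, and at 479.9, 429 and 419.9 TPM in U118 sensitive and 273, 116 and 138 TPM in U118 resistant libraries. Its groups did not overlap in either line, with changes of -0.83 (limma adjusted p = 0.00246) and -1.43 (limma adjusted p = 0.00506). POLD3, an accessory subunit of polymerase delta, fell by 1.87 in U118 (limma adjusted p = 0.000431), and RPA1, the large RPA subunit, fell by 1.74 (limma adjusted p = 0.000469). The other partners called lower in U118 were LIG1, RFC1, RFC4, RFC5 and RPA3. POLD4, the smallest subunit of polymerase delta, went the other way in U118, from 37.4, 41.1 and 37.3 to 94.6, 113 and 118.3 TPM, a rise of 1.46 (limma adjusted p = 0.000361). In U87 POLD4 changed by 0.76 (limma adjusted p = 0.00983), too small for a call.

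Among 5 accessory genes, HMGB1, a chromatin protein that assists excision, was called lower in both lines (-1.63 with limma adjusted p = 0.0112 in U87, -1.01 with limma adjusted p = 0.0268 in U118), and under median-ratio scaling in U87 (-1.36) but not in U118 (-0.50, limma adjusted p = 0.111). SETD2, the methyltransferase whose histone mark recruits MSH6 to chromatin, was called lower in U87 (-1.22, limma adjusted p = 0.00437) and was at -0.98 in U118 (limma adjusted p = 0.00866), and it was called in neither line under median-ratio scaling. The helicase gene MCM8 was called lower in U118 (-2.04, limma adjusted p = 0.000505), and MCM9 and the nuclease gene FAN1 were called in neither line. Many replication and repair genes are expressed with the cell cycle, and 10 proliferation genes were set beside the members. In U87, 7 of these 10 were called lower (7.79% of all genes), with a median of -1.44. Their summed level was 1232 to 1450 TPM in sensitive and 466 to 515 TPM in resistant libraries. In U118, 5 of 10 were called lower (26.6% of all genes), with a median of -0.97 and summed levels of 1264 to 1464 and 581 to 801 TPM. All 10 proliferation genes were below 0 in U87, where EXO1 was at 0.33. The helicase genes MCM3 (0.20) and MCM5 (0.12) were also above 0 there, with every resistant library above every sensitive library. Of the 6 MCM2 to MCM7 helicase genes, 4 were below 0 in U87 (median -0.06), and 1 was called lower in U87 and 3 in U118. Of 10 genes of the ATR checkpoint, which mismatch repair can activate, 3 and 5 were called lower. The shares of all genes called lower were 7.79% in U87 and 26.6% in U118. Under median-ratio scaling the lower calls in U87 and U118 were 7 and 3 of the proliferation genes, 0 and 0 of the MCM genes and 0 and 2 of the checkpoint genes. The shares of all genes called lower under that scaling were 3.81% and 13.7%. The part of cell cycling in the members' changes was not tested.

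Across the 12 libraries, the genes whose log2(TPM + 1) followed each member most closely were named by Pearson's r, a description over libraries that share groups and scaling. MSH6 was closest to METTL4, MED28 and LMNB1 (r of 0.968, 0.967 and 0.965), EXO1 to ANTXR2 (0.987), PMS1 to ANKRD36B (0.990), PMS2 to WARS2 (0.986), MSH5 to TBC1D3 (0.989) and MSH3 to ARPP19 (0.985). MLH3 had no gene above 0.879, that of TMEM243. Between members, MSH5 and EXO1 had an r of 0.948, and MSH5 and MLH3 one of -0.25.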

How the data were processed

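The mRNA libraries of U87 and U118 cells were analysed from the TPM values per gene that the authors deposited, 1 table for each line. The submitters' processing notes name FastQC 0.11.2, Trimmomatic 0.36, HISAT2 2.0, bedtools 2.26.0 and GRCh38. The quantification tool and annotation are not given in the sources used here. Because TPM discards read numbers, neither depth nor counting intervals are available. Groups and replicate numbers came from the sample labels, and all 12 libraries were used.

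Values were transformed to log2(TPM + 1), so that changes of low genes are understated, and fitted with limma 3.58.1 (R 4.3.3, eBayes with trend) within each line, for genes that reached 1 TPM in 3 or more of its 6 libraries. The interaction was fitted over all 12 libraries, for genes that reached 1 TPM in 3 or more. P-values were adjusted over all genes tested. Changes are resistant minus sensitive. Ratios within a library were taken without a pseudocount and tested with scipy 1.17.1. The fits were tested on simulated data first. Of the 58174 identifiers, 57836 are in GENCODE release 29, whose positions are printed. Of each member, the 3 genes of highest r, the nearest or overlapping protein-coding genes and genes that share its sequence could be named. The members and gene lists were chosen with earlier results of these data known, and other genes of the pathway were not analysed here. Alternatives were another pseudocount, other filters, median-ratio scaling, TPM without mitochondrially encoded genes, a replicate block, no trend, no fold change threshold and each library left out.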

Additional observations from a re-analysis of the deposited data

Results flagged for a closer look

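The difference between resistant and sensitive libraries was not the same in the lines, by a test of that difference itself (limma interaction over 12 libraries), for MSH5 and EXO1. For MSH5 the U118 change minus the U87 change was -2.29 (SE 0.50, adjusted p = 0.00322). MSH5 was lower in 3 of 3 U118 resistant libraries than in any U118 sensitive library and overlapped between groups in U87. For EXO1 the difference was -1.81 (SE 0.29, adjusted p = 0.00035). EXO1 was lower in 3 of 3 U118 resistant libraries and higher in 3 of 3 U87 resistant libraries than in the sensitive libraries of the same line. Of all 16382 genes tested, 38.1% passed this test, and the U118 resistant libraries are those whose values across all genes lay closer to U87 than to U118 sensitive cells. Groups of 3 libraries were too small for a test of single outlying libraries.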

How the results depend on the processing

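The 5 U118 calls of members went down to 3 with no filter on low values and to 1 under median-ratio scaling, and to between 3 and 5 with 1 library left out. No member was called in U87 under any of the 14 alternatives except with no fold change threshold, where 2 were lower. Among the 14 repair partners, U87 calls went from 0 to 1 lower with a pseudocount of 0.1, to 1 higher under median-ratio scaling, to 9 lower and 1 higher with no fold change threshold, and to between 0 and 1 lower with 1 library left out. With no fold change threshold, 29.7% of all tested U87 genes were lower. In U118 their 8 lower calls went to 3 under median-ratio scaling and to between 6 and 9 with 1 library left out. The cause of these shifts was not tested, apart from the threshold itself. Without the filter more genes entered the fit, and the part of that number was not tested.

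Under median-ratio scaling the U118 changes were -0.75 for MSH6, -0.88 for PMS1, -0.65 for PMS2 and -0.99 for EXO1, none called, and MSH3 turned to 0.14. PMS2 was at -0.96, not called, without mitochondrially encoded genes. With 1 library left out, changes that were not called turned sign in U87 for MSH3 (-0.43 to 0.016), MSH5 (-0.056 to 0.19) and PMS1 (-0.48 to 0.094), each of them without U87 sensitive replicate 2 (0.016, -0.056 and 0.094), and in U118 for MLH3 (-0.12 to 0.50; -0.04 without sensitive replicate 2, -0.10 and -0.12 without resistant replicates 1 and 3). The interaction of MSH3 turned to 0.14 under median-ratio scaling, to 0.020 without mitochondrially encoded genes and to between -0.32 and 0.13 with 1 library left out. The number of members past the interaction test was between 2 and 5 with 1 library left out, an alternative added after seeing the data, and was 5 without U118 resistant replicate 1. The U118 ratio differences that turned sign with 1 library left out ranged from -0.14 to 0.55 for PMS2 to PMS1, from -0.40 to 0.00075 for EXO1 to MSH6 and from -0.24 to 0.037 for EXO1 to PCNA. The ratio differences of U87, and MSH6 to MSH3 in U118, kept their sign under all 7 alternatives.

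Same-numbered deviations correlated by 0.01, -0.07 and -0.04 in U87, where the replicate numbers showed no pairing. In U118 they correlated by 0.14, 0.05 and 0.10, and each library correlated best with its own number, so a weak pairing there is not excluded. With the replicate block, 0 members in U87 and 5 in U118 were called lower, as without it, and 0 and 8 partners.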
